A study of Homo sapiens with 28 samples.

Results

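Resting U937 cells lacking cREL were compared with resting U937 cells lacking p50, using 4 of the 28 RNA libraries of the series: replicates 1 and 2 of untreated cREL-/- cells and replicates 1 and 2 of untreated p50-/- cells. They were chosen by their labels alone. U937 is a human monocytic line grown from a histiocytic lymphoma. The series targeted 5 NF-kB subunits by knockout, with controls made from non-specific guide RNAs, and sampled each clone at 6 h without treatment and with 500 ng/ml lipopolysaccharide (LPS), a bacterial cell wall component. Here cREL-/- means loss of the subunit encoded by REL, and p50-/- loss of the subunit encoded by NFKB1. Each of the 4 is labelled with a single knockout and no treatment. Each library is read as a single clone, so a property of 1 clone and an effect of the knockout cannot be told apart within a pair. Replicate 1 of both knockouts carries the sample batch label B, and replicate 2 of both carries the label A, so each cREL library has a p50 partner in its own batch. The comparison asks whether cells without one subunit differ at rest from cells without the other.

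NF-kB proteins bind DNA as dimers. In resting cells most dimers are held in the cytoplasm by inhibitor proteins of the IkB family, and signals such as LPS lead to the destruction of the inhibitor and the entry of the dimer into the nucleus. cREL carries a domain that activates transcription, whereas p50, made by processing of the longer p105 protein, has none and can occupy DNA without activating a gene when paired with itself. In monocytic cells the family controls cytokines, chemokines, its own inhibitors and survival genes, and NFKB1 and REL are themselves NF-kB targets.

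The promoters of the targeted genes, and of AHNAK, are shown because they were the only ones, among the 5 subunit genes and the 24 genes of lowest p described below, to hold a match to the kB consensus, the sequence bound by NF-kB dimers. Each is the gene's strand 5′ to 3′, from 250 bases before the start site to 50 after, taken from RefSeq on GRCh38.p14, with the match in capitals. NFKB1 lies at chr4:102501109-102501408 on the plus strand, REL at chr2:60881324-60881623 on the plus strand and AHNAK at chr11:62545777-62546076 on the minus strand.
NFKB1: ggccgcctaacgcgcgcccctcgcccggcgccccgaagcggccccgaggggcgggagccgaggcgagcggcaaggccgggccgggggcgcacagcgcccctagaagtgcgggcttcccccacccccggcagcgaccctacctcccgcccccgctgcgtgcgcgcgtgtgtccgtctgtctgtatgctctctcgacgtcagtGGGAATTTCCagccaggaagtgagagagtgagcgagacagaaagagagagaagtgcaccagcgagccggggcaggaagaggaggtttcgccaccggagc
REL: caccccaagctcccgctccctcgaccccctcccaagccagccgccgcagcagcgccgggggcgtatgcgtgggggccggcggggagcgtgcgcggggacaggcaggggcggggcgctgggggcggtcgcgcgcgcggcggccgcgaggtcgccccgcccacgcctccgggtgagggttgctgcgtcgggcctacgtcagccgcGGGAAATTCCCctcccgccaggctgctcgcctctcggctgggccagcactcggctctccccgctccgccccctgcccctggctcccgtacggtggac
AHNAK: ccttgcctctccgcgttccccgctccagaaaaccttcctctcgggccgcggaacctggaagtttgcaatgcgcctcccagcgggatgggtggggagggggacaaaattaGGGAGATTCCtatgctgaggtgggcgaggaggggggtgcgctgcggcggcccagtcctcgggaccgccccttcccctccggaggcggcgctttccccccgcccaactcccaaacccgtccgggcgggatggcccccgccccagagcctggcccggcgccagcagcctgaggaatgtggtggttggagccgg
The match in NFKB1, GGGAATTTCC, begins at position -49 from the start site. In REL a match on each strand overlaps, beginning at -47 and -46, and in AHNAK the match GGGAGATTCC begins at -141. Of 28 genes, 22 had a promoter sequence, and RELB was among those without. A single promoter per gene was searched, on both strands. Of the 22, 3 held a match, against 5.91% of all 35116 promoters. The AP-1 motif TGANTCA was in 0 of the 22 (7.71% of all promoters). A TATA box, TATAAA, was in 1, ANXA1 (11.5% of all). A match describes the letters and does not show binding.

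The 4 libraries held 14972841 to 17885555 estimated counts, with 3.20 to 3.97% of counts on the 13 protein-coding mitochondrial genes. Of 17 markers of monocytic U937 cells, 16 were detected in all 4. Their summed level was 11802 and 8929 TPM (a per-length abundance) in cREL and 9616 and 6596 TPM in p50, so the groups overlapped. The exception was MPO, a granule peroxidase, at 0 to 0.151 TPM. Of 16 markers of T and NK cells, CD3D, CD8A, TRBC1 and TRBC2 were listed at 0 in all 4 libraries, while NKG7 stood at 317 to 492 TPM. For mast cells, TPSAB1 stood at 682 to 1857 TPM, with CPA3 and HDC listed at 0.

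One library stood apart. Over the 10835 genes with a mean of at least 3 CPM (counts scaled to library size with TMM factors), the SD of the log2 difference between cREL and p50 was 0.43 in the batch B pair and 0.72 in the batch A pair. The p50 replicates differed from each other by an SD of 0.82, and the cREL replicates by 0.55. The SD of cREL replicate 1 against p50 replicate 1 was thus smaller than either difference between replicates of a knockout. The guanine and cytosine (GC) content of genes correlated with the level in p50 replicate 2, relative to the other libraries of the series, at r = −0.46, the most negative of 28 libraries. Its LPS partner had r = −0.23, and the other 26 libraries ranged from −0.20 to 0.30. These correlations run across 10835 genes, which share library and base composition, and carry no test. Differences within each batch are therefore given beside the main results.

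At the level of single genes, 0 of the 17369 genes tested passed (0%; edgeR quasi-likelihood, Benjamini-Hochberg adjusted p under 0.05 for a call), and the smallest adjusted p was 0.866. At an unadjusted edgeR p under 0.05 there were 672 genes (3.87%), of which 470 were higher in cREL (2.71%) and 202 lower (1.16%). DESeq2, a second count model, called 6 genes and put 814 at an unadjusted p under 0.05. For genes of at least 3 CPM the 95% interval of the log2 difference reached 0.70 to either side at the median. Differences smaller than that were often not detectable even before adjustment, and much larger ones could go uncalled after it. For 1 gene alone to pass, an unadjusted edgeR p of 2.88e-06 was needed. The count of 0 does not show that the knockouts were alike at rest. The p-values measure the spread between clones.

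The pairs shared little of their pattern. The log2 difference in batch B correlated with that in batch A at r = 0.12 across the 10835 genes. The pairs have no library in common. Each pair was closer to itself after LPS: the correlation of the untreated difference with the LPS difference of the same clones was 0.43 in batch B and 0.75 in batch A. In batch A, 1294 of the 10835 genes differed by more than 1 on the log2 scale (11.9%), against 317 in batch B (2.93%).

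**Figure D1:**
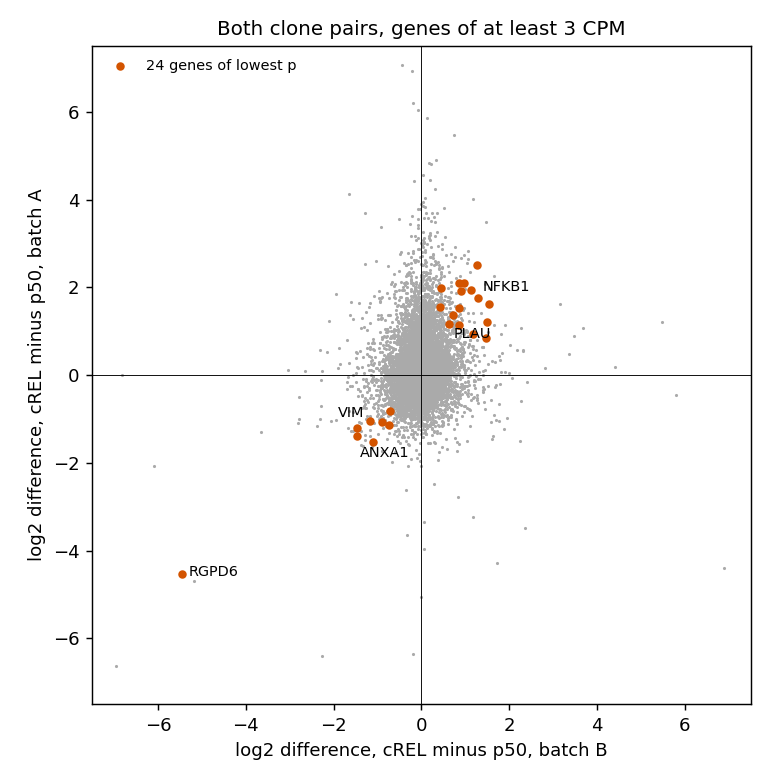
Log2 difference of cREL from p50 in the untreated batch B pair (horizontal) against the untreated batch A pair (vertical) for genes of at least 3 CPM, each point 1 gene and the 24 genes of lowest p in orange. The cloud is wider along the batch A axis (SD 0.72) than along the batch B axis (SD 0.43), and r is 0.12.

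Among the subunit genes, NFKB1, which encodes p105 and p50, was lower in the p50 knockout. It stood at 15.4 and 17.9 CPM in cREL replicates 1 and 2 and at 6.25 and 5.20 CPM in p50 replicates 1 and 2; values below keep this order. Both p50 libraries lay below both cREL libraries and below all 10 untreated libraries of other genotypes (9.43 to 22.1 CPM). The group means were 16.6 ± 1.75 and 5.73 ± 0.739 CPM (SD, n = 2 each), a log2 difference of 1.56 ± 0.30 (SE; edgeR unadjusted p = 2.91e-04), without passing adjustment; DESeq2 called it. The difference was 1.29 in batch B and 1.76 in batch A. NFKB1 spans chromosome 4 from 102501329 to 102617302 (GRCh38, GENCODE 29), and with LPS it stood at 21.4 and 13.7 CPM in cREL against 10.9 and 6.65 CPM in p50.

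REL, which encodes cREL and spans chromosome 2 from 60881521 to 60931610, did not separate the groups in the way NFKB1 did. It stood at 26.3 and 10.5 CPM in cREL and at 29.1 and 23.8 CPM in p50. Only cREL replicate 2 was low, below all 10 other untreated libraries (18.5 to 37.8 CPM), while cREL replicate 1 lay between the p50 values. The log2 difference was −0.61 ± 0.29 (edgeR unadjusted p = 0.062), made of −0.14 in batch B and −1.17 in batch A. With LPS the REL values were 23.9 and 8.19 CPM in cREL against 33.1 and 29.9 CPM in p50, so cREL was the lower in each pair there. The position of the guide cuts is not given in the sources used here, and a knockout can leave messenger RNA in place, so the REL level does not test the label of cREL replicate 1.

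The other subunits had wider errors. RELB, the activating partner of p52, stood at 8.39 and 2.49 CPM in cREL and 4.48 and 0.760 CPM in p50, higher in cREL within each batch (0.89 in B, 1.57 in A) with overlapping groups. NFKB2, the precursor of p52, stood at 2.93 and 1.79 CPM against 1.63 and 0.643 CPM, a log2 difference of 1.10 ± 0.67 (SE) and no overlap. RELA, encoding the activator p65, was nearly level at 53.8 and 51.1 CPM against 49.4 and 45.0 CPM, a log2 difference of 0.15 ± 0.59 (SE); its error comes from a fit whose untreated p65 libraries differ widely, at 43.7 TPM in the library labelled p65 replicate 1 and 5.13 and 8.19 TPM in replicates 2 and 3. On the per-length TPM scale, RELA was the most abundant subunit gene in all 4 libraries, at 23.6 to 30.2 TPM. NFKB2 was the least abundant in each, at 0.389 to 1.46 TPM. REL exceeded NFKB1 in both p50 libraries (9.49 over 3.75, and 6.61 over 2.75 TPM) and in cREL replicate 1 (8.61 over 7.54 TPM), and was below it in cREL replicate 2 (2.91 under 8.71 TPM).

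**Figure D2:**
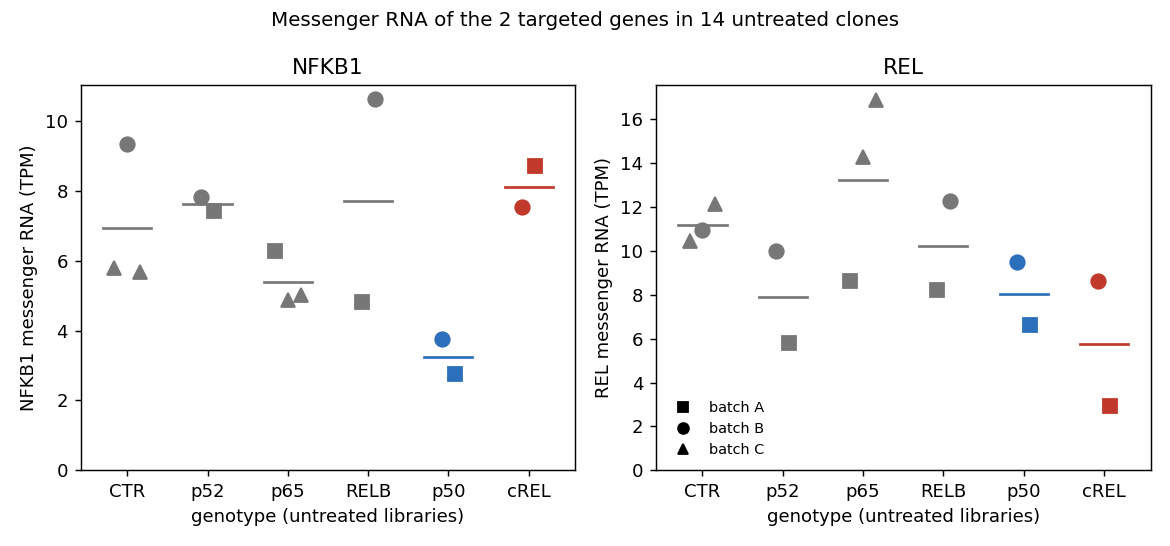
TPM of NFKB1 (left) and REL (right) in the 14 untreated libraries by genotype, each library a point shaped by batch and each line the mean of a genotype. NFKB1 is lowest in the 2 p50 libraries (2.75 and 3.75 TPM), and REL is lowest in 1 of the 2 cREL libraries (2.91 TPM).

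The list of the 14 subunit and IkB genes had a median log2 difference of 0.19 (0.01 over all genes), but −0.18 in batch B and 0.86 in batch A. NFKB1 was its only member at an unadjusted p under 0.05. Of the 14, 6 were higher in cREL in both batches and 1 was lower, where the shares over all genes are 27.2% and 25.5%. NFKBIB, which encodes the inhibitor IkB-beta, stood at 16.5 and 16.9 CPM in cREL and 12.4 and 8.42 CPM in p50, without overlap. Among 19 genes of feedback and the noncanonical pathway (median −0.10), TNFAIP3, the ubiquitin editor A20 that dampens NF-kB signalling, had the lowest p. It stood at 12 and 16.9 CPM against 5.77 and 8.54 CPM, a log2 difference of 1.01 ± 0.41 (SE; edgeR unadjusted p = 0.029). With LPS the order was not the same, at 44.3 and 23.4 CPM against 46.3 and 37.0 CPM; the change of the difference had an edgeR unadjusted p of 0.0168 and did not pass.

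By rule, the 24 genes of lowest p were read next, among genes of at least 3 CPM with a symbol and the same sign in both pairs. None passed. Of these, 16 were higher in cREL and 8 lower, with unadjusted edgeR p from 4.99e-05 to 0.00485. The groups did not overlap in 23 of the 24, and SMPD2 was the exception; over all genes 15.1% lay wholly higher in cREL and 14.4% wholly lower. Since they were picked for low p and matching signs, these counts describe the choice.

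The 8 lower in cREL included structural and membrane-associated proteins. VIM, the intermediate filament protein vimentin (chromosome 10, 17228259 to 17237593), stood at 330.1 and 274 CPM in cREL and 738 and 567 CPM in p50. Both cREL libraries were the lower by about the same amount, −1.16 in batch B and −1.05 in batch A, with a log2 difference of −1.11 ± 0.24 (SE; edgeR unadjusted p = 6.46e-04). ANXA1, an annexin that binds membrane phospholipid and limits inflammation (chromosome 9, 73151757 to 73170393), stood at 264 and 154 CPM against 564 and 441 CPM (−1.31 ± 0.34). AHNAK, a very large scaffold protein, stood at 80.9 and 78.2 CPM against 133 and 138 CPM (−0.77 ± 0.19). In VIM and AHNAK the replicates of a knockout lay closer together than the groups did, and in all 3 genes the groups did not overlap. CDC42EP3, an effector of the GTPase CDC42, stood at 69.9 and 43.5 CPM against 130.4 and 90.7 CPM (−0.97 ± 0.25). MFAP4, an extracellular matrix glycoprotein, stood at 20.3 and 18.8 CPM against 55.8 and 43.5 CPM (−1.34 ± 0.36). In both, each cREL library was below each p50 library. ATP8B2, a lipid flippase, stood at 3.68 and 3.45 CPM against 10.5 and 9.24 CPM, and was the one gene of the 24 whose 2 cREL libraries lay below all 10 other untreated libraries. NRIP3 stood at 55.5 and 39.2 CPM against 91.9 and 86.3 CPM (−0.93 ± 0.26); its LPS difference was smaller, at −0.34 and −0.44.

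The eighth gene, RGPD6, had the lowest p of all (4.99e-05, edgeR unadjusted; log2 difference −5.63 ± 0.90). It stood at 0.0682 and 0.256 CPM in cREL and at 8.01 and 8.48 CPM in p50, while the other untreated libraries ran from 0 to 11.1 CPM. RGPD6 belongs to a family of near-identical copies on chromosome 2, and its value is uncertain because reads can be shared among them. RGPD5, a member read after its values were seen, had the reverse order, at 10.2 and 10.2 CPM in cREL and 4.41 and 4.33 CPM in p50. RGPD8, likewise, had the same order as RGPD6, at 7.16 and 6.58 CPM against 9.51 and 13.8 CPM. On the per-length scale RGPD6 was at 0.312 and 1.56 TPM in cREL and 4.58 and 1.52 TPM in p50, level in batch A. With an offset for effective length the RGPD6 log2 difference was −1.99, and that of RGPD5 turned from 1.22 to −0.15. With LPS the RGPD6 value of p50 replicate 2 was 0, against 8.48 CPM in the untreated library of that clone.

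Of the 16 genes higher in cREL, NFKB1 and 4 others had both p50 libraries below all 10 untreated libraries of the other genotypes. The share over all genes was not computed for this count or for that of ATP8B2. The 16 were chosen for low p, so the count does not show a trait particular to the p50 knockout. FBXO10, a substrate receptor of a ubiquitin ligase (chromosome 9, 37510892 to 37576349), stood at 22.2 and 33.3 CPM in cREL and 11.8 and 8.71 CPM in p50. Its p50 values were below all 10 other untreated libraries (13.2 to 28.6 CPM), and its log2 difference was 1.46 ± 0.32 (SE; edgeR unadjusted p = 6.54e-04). The same order held for RMI2, a subunit of the complex that dissolves recombination intermediates, at 6.95 and 4.98 CPM against 2.38 and 2.10 CPM. It also held for LINC00638, a noncoding RNA, at 4.23 and 5.56 CPM against 1.70 and 0.877 CPM. SMPD2, a sphingomyelinase, was the fifth gene with p50 below the rest, at 49.6 and 20.4 CPM against 22 and 10.6 CPM, and there the cREL and p50 groups overlapped. None of the 24 had both p50 libraries above all 10, or both cREL libraries above all 10.

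Other genes on the higher side varied in how evenly the pairs contributed. OTULINL, a relative of the deubiquitinase OTULIN, stood at 84.4 and 76.8 CPM against 46.7 and 34.6 CPM, with 0.85 in batch B and 1.15 in batch A. BLNK, an adaptor protein of B-cell receptor and immune signalling, stood at 19.1 and 15.3 CPM against 6.86 and 8.42 CPM, with the larger difference in batch B (1.46 against 0.86). PLAU, the urokinase plasminogen activator, stood at 92.3 and 118 CPM against 59.2 and 52.7 CPM (0.64 and 1.16). These groups did not overlap. In ARHGAP11A the batch A pair carried most of the difference (0.45 in B, 1.99 in A), at 128 and 190.0 CPM against 93.2 and 47.8 CPM. EHMT1, a histone H3 methyltransferase, stood at 52.03 and 40.6 CPM against 38.6 and 13.7 CPM (0.43 and 1.56), and SAPCD2 at 17.7 and 17.4 CPM against 9.78 and 3.98 CPM (0.85 and 2.10). In each of these 3 genes p50 replicate 2 was the lowest of the 4 libraries. NXN, a redox protein, AJUBA, a LIM-domain scaffold, BRF1, a subunit of the RNA polymerase III initiation factor TFIIIB, the pseudogene TREML3P and EPHB4, an ephrin receptor, made up the rest, with fitted log2 differences of 1.58, 1.66, 1.03, 1.64 and 1.17. Each was higher in cREL in both untreated pairs, as the rule requires.

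**Figure D3:**
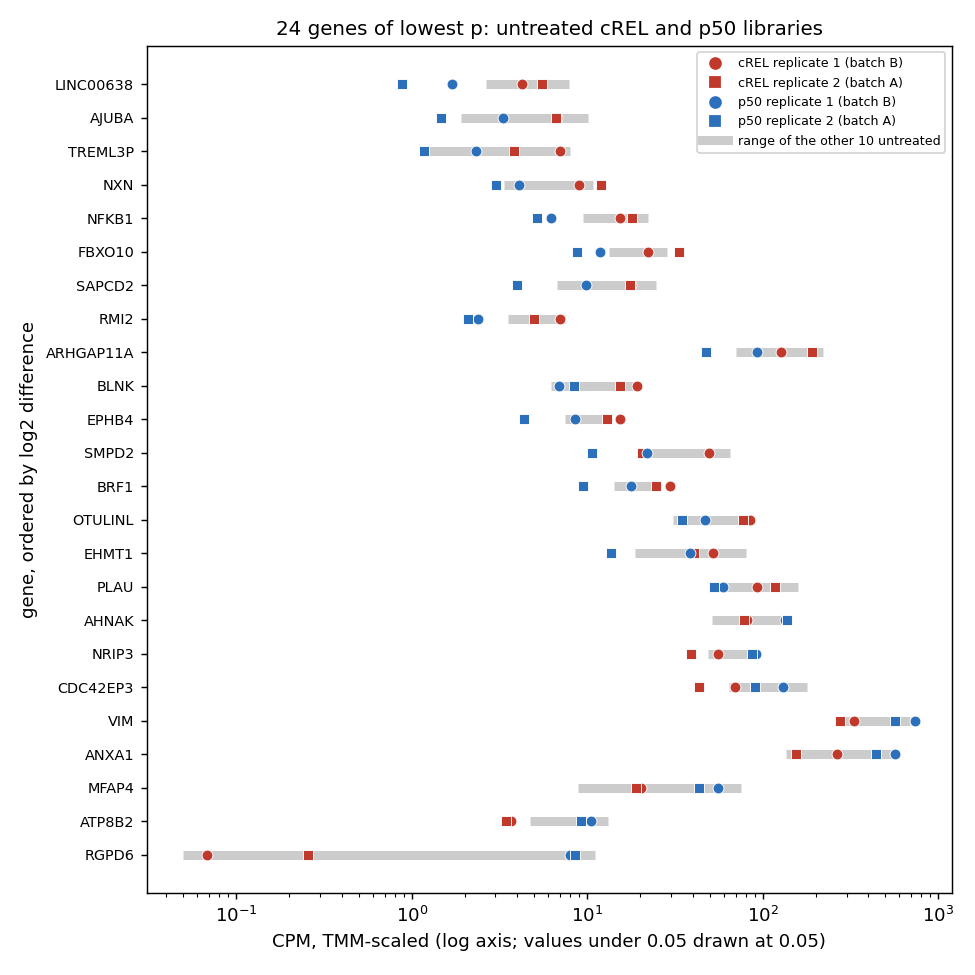
TMM-scaled CPM on a log axis for the 24 genes of lowest p in the 4 untreated libraries, each library a point coloured by knockout and shaped by batch, with grey bars for the range of the other 10 untreated libraries. The groups separate in 23 genes and overlap in SMPD2, and no gene passed the adjusted threshold.

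The same clones were read after LPS, in libraries that did not choose the genes. They share the clones, so they are not an independent check. Of the 16 genes higher in cREL, 15 were higher in both LPS pairs, and of the 8 lower in cREL, 7 were lower in both. No share over all genes is given beside these counts. Across the 10835 genes the untreated and LPS differences of the same clones correlated at 0.43 in batch B and 0.75 in batch A. Without the share over all genes, the counts cannot show whether these genes stand apart from others. AJUBA was the first exception, at 3.92 CPM in cREL against 6.00 CPM in p50 in batch B, and RGPD6 the other, at 0 in both batch A libraries. VIM stood at 312 and 277 CPM against 747 and 629.7 CPM with LPS, close to its untreated values. Whether the difference changed with LPS was tested within clones: 0 of 18624 genes passed (0%; edgeR), with 455 at an unadjusted p under 0.05 (2.44%), and DESeq2 called 0 with 386.

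Cytokine and chemokine genes, classical outputs of the family, were lower in cREL in both batches for 8 of 15 and 8 of 16 members tested (25.5% over all genes), and none passed. Of the cytokine genes 3 were higher in both (27.2% over all genes). Their median log2 difference was −0.39, with −0.16 in batch B and −0.90 in batch A, and it was −0.98 without cREL replicate 1 and −0.09 without cREL replicate 2. IL1B, the precursor of interleukin-1 beta, stood at 4.84 and 2.62 CPM in cREL and 12.4 and 8.30 CPM in p50, without overlap (−1.49 ± 0.54, SE; edgeR unadjusted p = 0.0182). With LPS it stood at 38.6 and 19.8 CPM against 71.0 and 52.3 CPM, again lower in both cREL clones. TNF stood at 3.61 and 2.49 CPM against 4.48 and 7.60 CPM, with an unadjusted edgeR p of 0.0765. Of the chemokine genes 3 were higher in both batches (median −0.42, with −0.38 in B and −0.27 in A), and none had an unadjusted edgeR p under 0.05. The monocyte attractants CCL2 and CCL7 were on the lower side, at 13.6 and 11.9 against 18.1 and 32.0 CPM for CCL2 and at 6.82 and 2.94 against 20.4 and 7.31 CPM for CCL7. The groups did not overlap in either. CXCL16, a membrane-bound chemokine, was on the other, at 15.6 and 13.9 CPM against 8.69 and 7.13 CPM. The errors of these lists' members are wide, with SE of 0.47 to 0.90 for the 5 genes named.

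Among receptor and signalling genes, TLR4, the LPS receptor, stood at 108 and 79.6 CPM in cREL and 149.7 and 112 CPM in p50. It was lower in cREL by nearly the same step in each pair (−0.47 and −0.49; edgeR unadjusted p = 0.0429), and the 27 TLR4 pathway genes had a median of 0.02. Of 15 chemoattractant receptor genes, 8 were lower in cREL in both batches and 3 higher (25.5% and 27.2% over all genes). Their median was −0.30. LTB4R, a leukotriene receptor, was on the higher side, at 38.1 and 24.02 CPM against 28.6 and 5.20 CPM, and overlapped. C3AR1 was on the lower side without overlap, at 26.4 and 9.45 CPM against 38.2 and 27.1 CPM. So was CXCR3, at 1.30 and 0.830 CPM against 2.51 and 2.63 CPM. Among 44 interferon-stimulated genes (median 0.03, with 0.10 in B and −0.15 in A), 8 were higher and 11 lower in both batches (27.2% and 25.5% over all genes). HERC5, the ligase for ISG15, stood at 13.8 and 23.9 CPM against 10.2 and 5.90 CPM. ITGAL, the integrin alpha chain of LFA-1, stood at 1.02 and 4.85 CPM against 7.81 and 9.82 CPM.

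MHC class II genes had the largest median of the 24 lists, 1.58, and it rested on cREL replicate 1. The median was 1.92 in batch B and −0.48 in batch A. Of the 12 members tested, 5 were higher in cREL in both batches and 0 lower (27.2% and 25.5% over all genes). HLA-DQA1 was among the 5 (2.97 in B, 0.58 in A), at low levels of 2.93 and 0.319 CPM against 0.272 and 0.175 CPM, without overlap. HLA-DMB was another (2.07 in B, 1.79 in A), at 4.36 and 0.894 CPM against 0.951 and 0.175 CPM, with overlap. HLA-DRA, the alpha chain of HLA-DR, stood at 689 CPM in cREL replicate 1 and 152 CPM in p50 replicate 1, but at 27.9 and 18.6 CPM in the replicate 2 libraries. The 10 other untreated libraries spanned 20.9 to 1666 CPM, so only p50 replicate 2 lay outside that range, and the cREL and p50 groups overlapped. CD74, the invariant chain, read after its values were seen, stood at 484 and 60.0 CPM against 184 and 78.0 CPM. CIITA, the regulator of the class and likewise outside the rule, stood at 5.39 and 2.87 CPM against 4.96 and 4.56 CPM, and its direction changed with an offset for effective length. Without cREL replicate 1 the list median was −1.36, and without cREL replicate 2 it was 2.77.

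Myeloid identity genes lay on both sides. LYZ, lysozyme, stood at 545 and 415 CPM in cREL and 1063 and 827 CPM in p50, lower by 0.96 in batch B and 0.99 in batch A on the log2 scale. CSF1R, the receptor of macrophage colony-stimulating factor, stood at 13.7 and 8.50 CPM against 43.5 and 14.97 CPM (edgeR unadjusted p = 0.0133). CTSG, the granule protease cathepsin G, had the opposite order, at 2012 and 1545 CPM against 571 and 806 CPM, with an unadjusted edgeR p of 0.226. In all 3 genes the groups did not overlap. Of 30 differentiation genes, 8 were higher and 8 lower in both batches (median −0.04), near the shares over all genes (27.2% and 25.5%). Of 14 promyelocyte granule genes, 2 were higher and 6 lower (median −0.19, and 0.05 without cREL replicate 2). The summed level of the monocytic markers, given above, includes LYZ and CTSG and overlapped between the groups; its part in these values was not tested. Among 29 myeloid transcription factors the median was 0.38, but 0.13 in batch B, 0.22 in batch A and 0.18 with a correction for GC content. In both batches 12 were higher and 7 lower (27.2% and 25.5% over all genes). FLI1 stood at 132 and 88.7 CPM against 103 and 37.1 CPM, and overlapped. CEBPA, which drives granulocyte fate, stood at 15.5 and 26.6 CPM against 12.4 and 8.71 CPM. In both genes p50 replicate 2 was the lowest of the 4 libraries.

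Of 33 proliferation genes, 18 were higher in cREL in both batches and 1 lower (27.2% and 25.5% over all genes), with a median of 0.17, 0.19 in batch B and 0.06 in batch A. The median step was small. MCM3, a subunit of the replicative helicase, stood at 1052 and 1318 CPM against 944 and 884 CPM, a log2 difference of 0.37 ± 0.22 (SE). Fitted log2 differences were larger for MCM2 (1.01), CCNE1 (1.89) and E2F1 (0.87). MCM2, of the same helicase, stood at 377 and 416 CPM against 324 and 107 CPM, so that most of its difference came from p50 replicate 2 (0.22 in B, 1.96 in A). CCNE1, a cyclin of S-phase entry, stood at 4.64 and 10.2 CPM against 2.44 and 1.52 CPM, and E2F1 at 25.8 and 20.9 CPM against 18.9 and 7.95 CPM. These 3 were the list's members at an unadjusted edgeR p under 0.05. Without p50 replicate 2, or without cREL replicate 2, there were 0, and the list median was 0.29 or 0.08. Without p50 replicate 1 the median was −0.00457.

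Of 29 genes of cholesterol and fatty acid synthesis, 15 were higher in cREL in both batches and 4 lower (27.2% and 25.5% over all genes). Their median was 0.21, and 6 had an unadjusted edgeR p under 0.05, against 2.71% of all genes on that side. DHCR7, which makes cholesterol from 7-dehydrocholesterol, stood at 157 and 137 CPM against 113 and 74.5 CPM (0.47 and 0.88). INSIG1, a brake on sterol synthesis, stood at 128 and 113 CPM against 99.4 and 41.3 CPM. FASN, fatty acid synthase, was level in batch B and not in batch A, at 74.5 and 74.4 CPM against 73.8 and 18.1 CPM. The other 3 were MVK and, named after their values were seen, SREBF2 and FADS2. SREBF2, a master regulator of the pathway, stood at 90.2 and 77.4 CPM against 95.4 and 5.50 CPM. In all 6 genes p50 replicate 2 was the lowest of the 4 libraries. Without that library 1 member of the list was at an unadjusted edgeR p under 0.05, and without cREL replicate 2 there were 0, with list medians of 0.31 and 0.23.

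Of 30 glycolysis and hypoxia genes, 17 were lower in cREL in both batches and 6 higher (25.5% and 27.2% over all genes). Their median was −0.15, and none had an unadjusted edgeR p under 0.05. LDHA, lactate dehydrogenase A, stood at 1412 and 1581 CPM against 1589 and 2196 CPM, and the glucose transporter SLC2A3 at 39.8 and 31.7 CPM against 57.0 and 51.8 CPM. Of 32 genes of migration and the cytoskeleton, 18 were lower in both batches and 2 higher, beside the same shares over all genes (median −0.13). VIM and ANXA1 led that list, followed by ANXA2, a second annexin, at 1020.0 and 781 CPM against 1519 and 1231 CPM. The fourth, RAC1, a small GTPase of the actin cytoskeleton, was on the other side, at 189 and 171 CPM against 150.4 and 29.3 CPM, with p50 replicate 2 the lowest library (0.33 in B, 2.53 in A). Of 20 genes of adhesion and costimulation, 5 were higher in cREL in both batches and 6 lower (27.2% and 25.5% over all genes, median 0.01). CD44, the hyaluronan receptor, stood at 240.3 and 241 CPM against 318 and 287 CPM, with no overlap and a log2 difference of −0.33 ± 0.23 (SE). CD83 went the other way, at 59.6 and 60.6 CPM against 31.7 and 46.3 CPM, also without overlap.

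Of 31 immediate early and heat shock genes, 4 had an unadjusted edgeR p under 0.05, all higher in cREL (2.71% of all genes). Without p50 replicate 2 the count was 1 on each side, without cREL replicate 2 it was 1 higher, and without p50 replicate 1 it was 10 higher. ATF3, a stress-induced transcription factor, stood at 7.02 and 7.03 CPM against 3.74 and 2.22 CPM. HSPA1A, an inducible HSP70, stood at 332 CPM in cREL replicate 1 and at 134 to 168 CPM in the other 3, so it rested on that library (1.31 in B, 0.07 in A). HSPH1 overlapped, at 547 and 280.5 CPM against 469 and 123 CPM. In both heat shock genes cREL replicate 1 was the highest library. DUSP4, a MAP kinase phosphatase, stood at 16.7 and 18.4 CPM against 10.7 and 5.90 CPM. Of 24 genes of the unfolded protein and integrated stress response (median 0.10), 2 were at an unadjusted edgeR p under 0.05, both higher in cREL, and without p50 replicate 2 there were 0. HSPA5, the endoplasmic reticulum chaperone BiP, was even across pairs (0.51 and 0.45), at 1256 and 1464 CPM against 882 and 1072 CPM, and TRIB3, a stress-induced pseudokinase, stood at 207 and 144 CPM against 135 and 59.0 CPM. The list of 31 immediate early and heat shock genes had 9 members higher and 8 lower in both batches (27.2% and 25.5% over all genes). Its median was 0.08, with −0.12 in batch B and 0.67 in batch A.

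**Figure D4:**
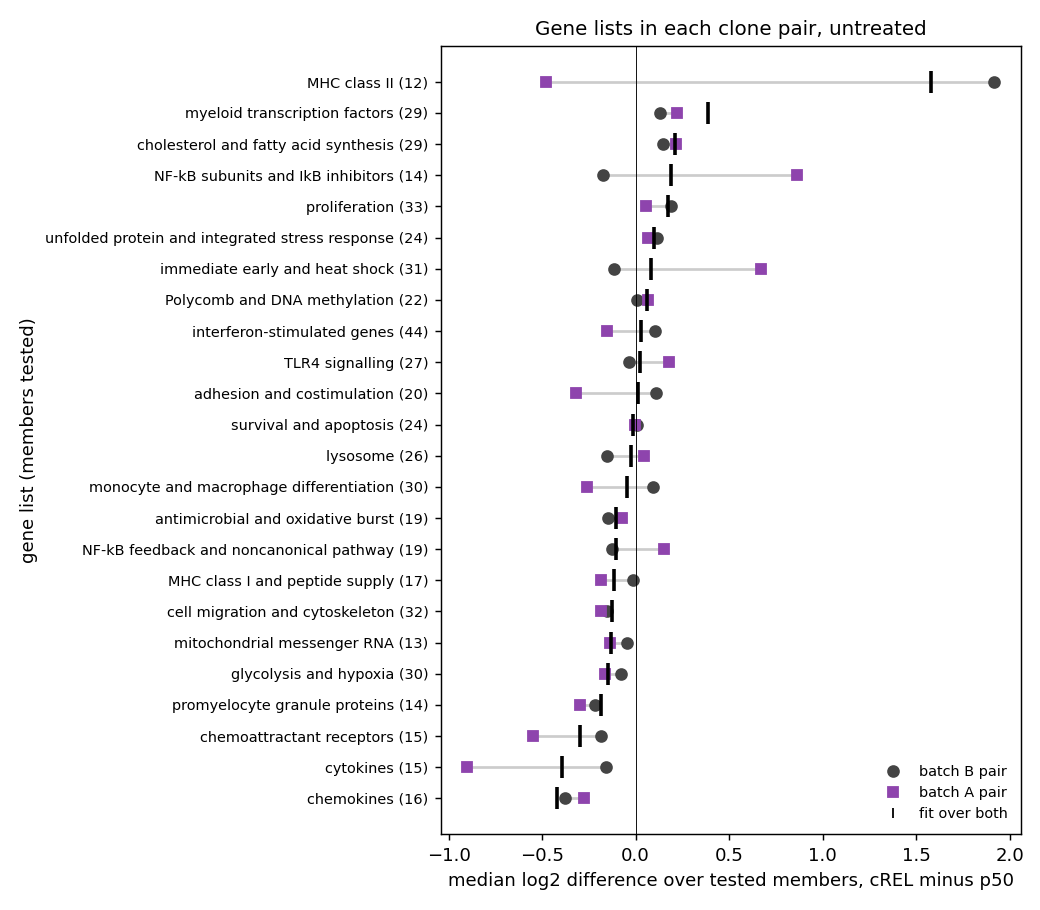
Median log2 difference of cREL from p50 for each of the 24 gene lists, with separate points for the batch B pair, the batch A pair and the fitted value. MHC class II stands at 1.92 in batch B and −0.48 in batch A, while most lists lie near the median over all genes.

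The share of genes higher in cREL differed with GC content. With the genes split into 4 equal bins of GC content, the median difference in the richest bin (55.3 to 72.2%) was 0.31 in batch A and 0.03 in batch B, and of its genes 180 were higher and 7 lower in cREL at an unadjusted edgeR p under 0.05. In the poorest bin (27.4 to 41.6%) the counts were 21 and 48, and the medians −0.13 and −0.06. The correlation of the difference with GC was 0.33 in batch A and 0.08 in batch B. Without p50 replicate 2, 55.8% of the 371 genes at an unadjusted edgeR p under 0.05 were higher in cREL, against 69.9% with it. Without cREL replicate 2 the share was 53.1% of 397, and with a correction for GC 68.3% of 650. Without p50 replicate 1 instead, 29 genes passed, all higher in cREL, leaving p50 replicate 2 as the only p50 library. Adding a correction for GC to the fit left NFKB1 at 1.55 ± 0.29 and called 0 genes (650 at an unadjusted edgeR p under 0.05). Whether RNA quality, amplification or the clone accounts for the GC relation was not tested.

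**Figure D5:**
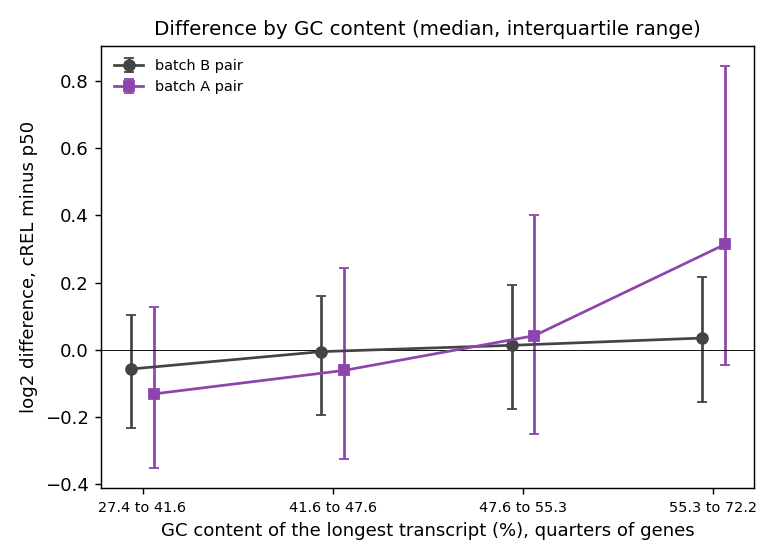
Median log2 difference of cREL from p50 in 4 bins of gene GC content, in the batch B and batch A pairs, with the bars spanning the interquartile range over genes. The batch A medians run from −0.13 to 0.31 across the bins and the batch B medians from −0.06 to 0.03.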

How the data were processed

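Polyadenylated RNA from untreated and LPS-treated U937 clones was reverse transcribed, amplified by 13 cycles of PCR and sequenced from both ends, per the labels. The authors deposited 3 gene tables: estimated counts per gene and library, TPM, and the effective length of each gene in bases as a further score. Salmon 0.11.3, FastQC 0.11.7 and the build GRCh38 are named in the submitters' processing notes; no source used here gives the annotation release or the strand setting. All 56809 gene symbols were found in GENCODE 29, which gave the positions.

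Estimated counts were rounded and tested with edgeR 4.0.16 (R 4.3.3; filterByExpr with minimum count 10 and minimum total 15, TMM scaling, robust quasi-likelihood). The fit held the 14 untreated libraries, 6 genotype groups and the sample batch, leaving 6 residual degrees of freedom; the biological coefficient of variation was 33.9%. The 10 libraries of other genotypes set the spread and the batch term. Change with LPS was fitted on 28 libraries blocked by clone, with 8 residual degrees of freedom. Same-numbered cREL and p50 libraries share a batch label; the deviations of same-numbered cREL and p50 libraries from their group means correlated at 0.177. The batch term is thus their replicate block.

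Named genes were the 5 subunit genes, the 24 of lowest p with a mean of at least 3 CPM, a symbol and the same sign in both batches, and up to 4 members of lowest p from each of 24 lists; others are marked as chosen after their values were seen. The members and lists were chosen with earlier results of these data known. List members are described by counts and medians, with no set test. Alternatives used DESeq2 1.42.0, limma voom 3.58.1, other scaling, filters and designs, and each library left out. Scripts were tested on simulated data. Reads without molecular identifiers are not independent molecules, and intervals cover the spread between clones only.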

Additional observations from a re-analysis of the deposited data

How the results depend on the processing

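The comparison is limited by 2 clones per knockout, 1 of them standing apart. No gene passed with the 4 libraries and their replicate block alone (570 at an unadjusted p under 0.05), all 28 libraries (945), either voom fit (643 and 866), RLE (677) or upper quartile scaling (650), an effective length offset (674), a stricter filter (562), or without p65 replicate 1 (0; 664). Without the replicate block 0 passed and 403 were under 0.05, of which 57.8% were higher in cREL against 69.9% with it. DESeq2 called 6. With no filter 108 genes passed, 84 of them higher in cREL, and 1399 were under 0.05; 107 of the 108 were also tested in the filtered fit, and the cause was not tested. Leaving out each library or batch pair in turn gave 0 to 29 calls and 314 to 1365 genes under 0.05. The batch A pair alone gave 18 calls and the batch B pair 0. In these fits a lone library is assumed to vary like the other groups. For the change with LPS, no filter gave 23 calls, and leaving out each cREL or p50 clone gave 0. The GC correction, added after seeing the data, turned the direction of no gene followed here.

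Of 72 genes followed, 67 kept their direction in every alternative in which they were tested. The 24 genes of lowest p were chosen for the same sign in both pairs. For them a kept direction with a library or pair left out largely describes the choice. Most of the others were chosen for low p within their lists. RELA ran from −0.17 to 0.51 over the fits with a library or pair left out, HLA-DRA from −1.58 to 4.06, CD74 from −1.13 to 1.90 and CIITA from −0.76 to 0.22. With the effective length offset CIITA was at 2.06 and RGPD5 at −0.15; the cause was not tested.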

Other observations

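By chromosome, the median log2 difference of cREL from p50 stayed within 0.05 of 0 in the batch B pair on all chromosomes listed. In the batch A pair it was 0.18 on chromosome X, 0.15 on chromosomes 16 and 19, 0.12 on chromosome 22 and −0.16 on chromosome 2. These are medians over the tested genes of at least 3 CPM, with no test.

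Of the 6 genes that DESeq2 called, NFKB1, FBXO10 and RGPD6 are described above. BACE2, RGS1 and Z83844.3 were chosen after their values were seen. BACE2 is a protease related to beta-secretase. It stood at 3.48 and 3.19 CPM in cREL and at 0.272 and 0.117 CPM in p50, and its mean was below the 3 CPM needed for naming. In edgeR its log2 difference was 4.09 ± 0.74 (SE; unadjusted p = 1.53e-04, adjusted p = 1). RGS1, a regulator of G-protein signalling, had nearly all of its counts in 1 library, at 5.39 CPM in cREL replicate 1 and 0.128 CPM in cREL replicate 2, and was at 0 in both p50 libraries. The sixth, Z83844.3, a clone-based name, stood at 3.20 and 2.36 CPM in cREL and at 0 in both p50 libraries.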
